A study of Bos indicus with 9 samples.

Results

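The window around PLAG1, CHCHD7, and PENK, a region of cattle chromosome 14 known for its association with stature and puberty, held 40 of the 140923 open chromatin regions (peaks) called in 3 tissues. Its members are all deposited peaks on chromosome 14 that overlap positions 22900000 to 23900000 of the ARS-UCD1.2 assembly, whatever their strength. The hypothalamus list held 26 of them, the muscle list 8, and the liver list 6. The assay for transposase-accessible chromatin (ATAC-seq) was performed on hypothalamus, muscle, and liver of 3 unrelated, post-pubertal Brahman heifers, an indicine (zebu) breed, with 3 libraries per tissue and 9 in all. No treatment was compared, and the groups are the tissues. The amount of nuclei per enzyme was tuned for each sample, so library preparation may also differ between tissues. Nuclei came from ground frozen tissue, so each library mixes the cell types of its tissue.

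PLAG1 encodes a zinc finger transcription factor that activates growth genes such as the insulin-like growth factor IGF2, and variation around it is associated with body size in cattle. CHCHD7 encodes a small mitochondrial protein of the coiled-coil-helix type, and the genes PLAG1 and CHCHD7 start close together and are read in opposite directions. PENK encodes proenkephalin, the precursor of the enkephalins, opioid peptides that are made by many neurons, including those of the hypothalamus. Open chromatin at a promoter or a distal element is a place where such factors and the transcription machinery can reach the DNA, and it is not in itself a measure of transcription. In the RefSeq gene table of another zebu assembly (NIAB-ARS_B.indTharparkar_mat_pri_1.0), the named protein-coding genes of this part of the chromosome follow in the order XKR4, TMEM68, TGS1, LYN, RPS20, MOS, PLAG1, CHCHD7, SDR16C5, PENK, and BPNT2. Positions of PLAG1, CHCHD7, and PENK on ARS-UCD1.2 were not used here, so peaks are given by coordinate and none is assigned to these 3 genes. The start of 1 of the 11 genes, TMEM68, is placed on ARS-UCD1.2 by the part of the authors' peak annotation read here.

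Each peak has 2 values from Genrich, the program that called it. One is the area under its significance curve (AUC), and the other is the −log10 p of its summit, which is not corrected for multiple tests. The authors combined the 3 heifers of a tissue before deposit, so the lists used here give no value for a single heifer and no error between heifers, and no test between tissues was made. The lists hold no read counts, and the depth of the libraries was not analysed here. Values were not scaled between lists, and peaks are therefore compared by their percentile, the share of all peaks in the same list with a value at or below their own. An open region in whole tissue does not tell whether more cells were open there or each cell was more open.

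Among 2587 windows of 1 Mb on chromosomes 1 to 29 and X, 1058 held more than its 26 hypothalamus peaks, 1111 held more than its 8 muscle peaks, and 510 held more than its 6 liver peaks. The median window held 21, 6, and 2 peaks in the same order. On chromosome 14 alone, 27, 26, and 8 of 81 windows held more. Hypothalamus peaks covered 21.1 kb (2.11%) of the window, muscle peaks 4.47 kb (0.447%), and liver peaks 2.48 kb (0.248%). Over all chromosomes the covered shares were 2.32%, 0.781%, and 0.284%, each higher than here. On chromosome 14 they were 2.00%, 0.599%, and 0.188%, and there the window was above the share in hypothalamus and liver and below it in muscle. With the 12063 strongest peaks on chromosomes kept in each tissue, the window held 7 hypothalamus, 4 muscle, and 6 liver peaks, so the excess of hypothalamus over liver was nearly gone and muscle had fewer peaks than liver.

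**Figure D1:**
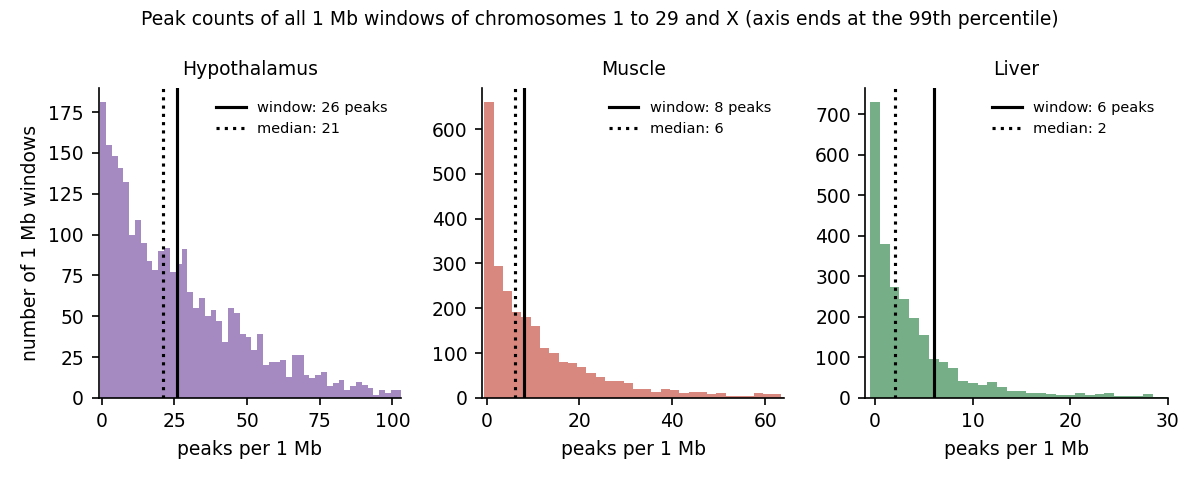
Histograms of the number of peaks per 1 Mb window on chromosomes 1 to 29 and X (horizontal axis, peaks; vertical axis, windows) in hypothalamus, muscle, and liver. The solid line marks the PLAG1, CHCHD7, and PENK window with 26, 8, and 6 peaks, and the dotted line marks the median of 21, 6, and 2.

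Liver and muscle peaks are sparse on chromosome 14, with 3.18 and 9.24 per Mb, and those of the window stood at a distance from others. How usual such distances are on the chromosome was not counted. The nearest liver peak below the window ended at 22017805 and the nearest above it began at 24729490, which leaves the 6 liver peaks alone in a stretch of 2.71 Mb. Muscle had no further peak between 22175986 and 24291538, a stretch of 2.12 Mb that held its 8 peaks. Hypothalamus peaks went on at both sides, with the next at chr14:22790493-22790952 (AUC 1032, summit −log10 p 5.71) and chr14:23919346-23920271 (AUC 2884, summit −log10 p 11.0). The last members inside the window were the hypothalamus peaks at chr14:22950721-22951122 (AUC 372, summit −log10 p 4.34) and chr14:23882109-23884286 (AUC 10390, summit −log10 p 16.1).

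Joined across tissues, the 40 peaks formed 29 separate regions. Of these, 20 were open in hypothalamus alone, 2 in muscle alone, and none in liver alone. Open in all 3 tissues were 4 regions, and 1 region each was open in hypothalamus and muscle, in hypothalamus and liver, and in muscle and liver. Sharing in the window was near the level of the lists. In hypothalamus 6 of 26 peaks (23.1%, Wilson 95% interval 11.0 to 42.1) were overlapped by a peak of another tissue, against 32.1% of the whole list and 25.2% on chromosomes 1 to 29 and X. In muscle 6 of 8 peaks (75%, 40.9 to 92.9) were overlapped, against 71.5% of the whole list and 64.0% on chromosomes. In liver all 6 peaks were overlapped (100%, 61.0 to 100), against 90.1% of the whole list and 92.2% on chromosomes. With the 12063 strongest peaks kept per tissue, 42.9% of 7 hypothalamus, 100% of 4 muscle, and 66.7% of 6 liver peaks were overlapped. The full overlap of the liver peaks did not hold there. The share over all kept peaks was not computed, so these shares cannot be called a trait of the window. Peaks of both other tissues overlapped 4 of the hypothalamus peaks (15.4%, against 12.9% on chromosomes), 4 of the muscle peaks (50%, against 30.4%), and 4 of the liver peaks (66.7%, against 79.3%). The intervals cover counting error only, and each of the 3 holds both the share of the whole list and that on chromosomes.

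**Figure D2:**
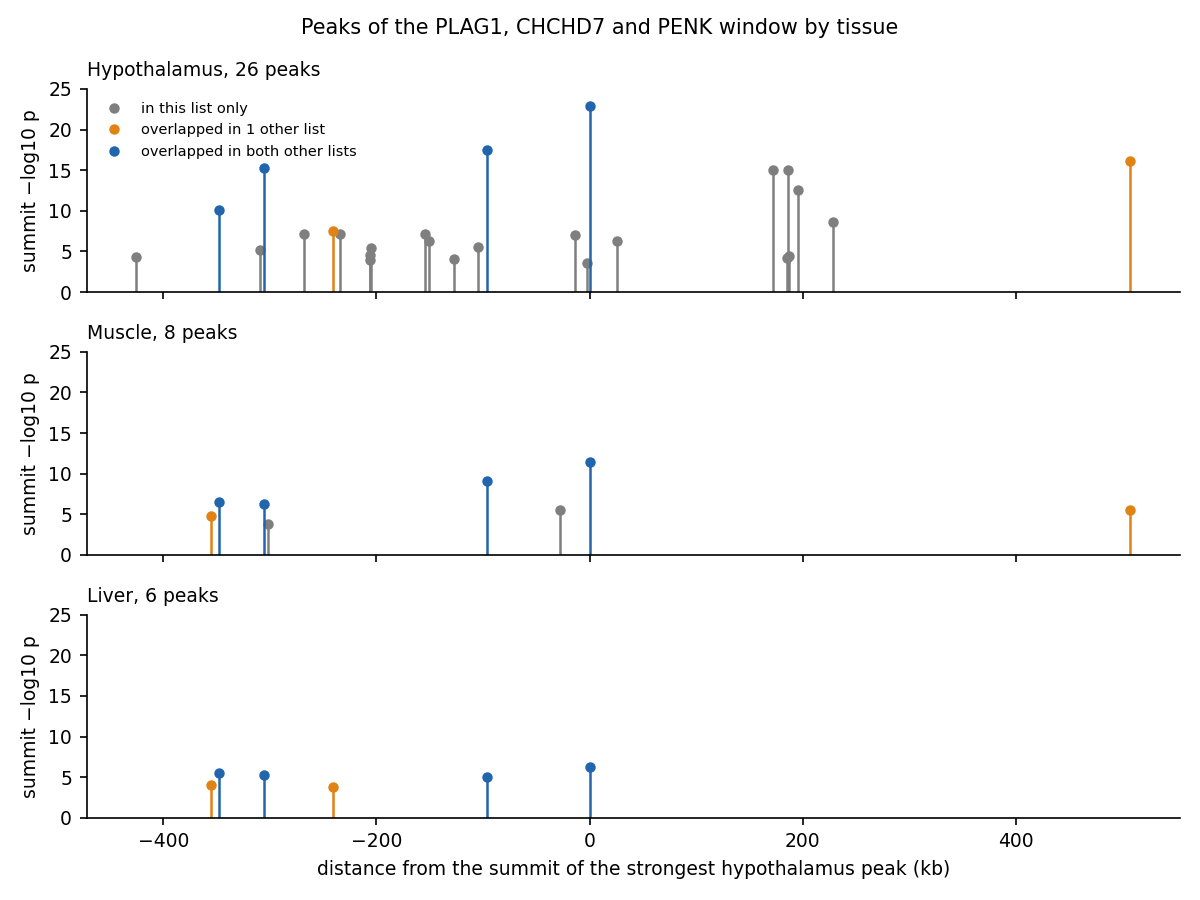
Peaks of the window in hypothalamus, muscle, and liver, placed by the distance of their summit from that of the strongest hypothalamus peak (horizontal axis, kb) and with the summit −log10 p as height (vertical axis, not scaled between tissues). Colors give the number of other lists with an overlapping peak, and the 4 regions open in all tissues stand in the lower part of the window and at its strongest peak.

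The strongest peak of the window was the same region in every tissue. It lies at chr14:23374731-23377538 in hypothalamus, with a length of 2808 bp, an AUC of 15855, and a summit −log10 p of 22.9. Only 5 of the 2039 hypothalamus peaks on chromosome 14 had a higher summit, and its summit stood at percentile 99.3 of the list. In muscle the peak at chr14:23375460-23376396 had an AUC of 3394 and a summit −log10 p of 11.4, at percentile 95.2 and rank 8 of the 760 muscle peaks on chromosome 14. In liver the peak at chr14:23375737-23376228 had an AUC of 1189 and a summit −log10 p of 6.29, at percentile 70.5 and rank 26 of the 262 liver peaks on chromosome 14. The 3 summits fell on the same base, position 23376022. Among peaks that overlap one to one on chromosomes, a gap of 0 bp between summits was found in 8.09% of 15371 pairs of hypothalamus and muscle, 6.72% of 8894 pairs of hypothalamus and liver, and 6.16% of 9429 pairs of muscle and liver. The muscle peak was 33.4% as long as the hypothalamus peak and lay within it, and the liver peak, 17.5% as long, lay within both.

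The next shared region, at chr14:23278888-23280390 in hypothalamus, had 1503 bp, an AUC of 6824, and a summit −log10 p of 17.4, at percentile 94.5. The muscle peak inside it, chr14:23279380-23279919, had an AUC of 1918 and a summit −log10 p of 9.12, at percentile 88.0. The liver peak, chr14:23279507-23279867, had an AUC of 703 and a summit −log10 p of 5.002, at percentile 48.5. This region therefore ranked high in the whole lists of hypothalamus and muscle and near the middle of the liver list. Among peaks on chromosomes overlapped in both other tissues, its summit stood lower in hypothalamus (percentile 65.6) and muscle (73.8), and at 54.4 for liver. By AUC it stood at 41.1, 54.0, and 56.5 among the same peaks, so the high ranks came down when only shared peaks were compared. The hypothalamus and muscle summits were again on the same base, and the liver summit was 21 bp away.

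The start of TMEM68, a gene for a membrane protein of lipid metabolism, lay inside an open region in all 3 tissues. In hypothalamus it was at chr14:23069120-23070930, with 1811 bp, an AUC of 7880, and a summit −log10 p of 15.3 (percentile 90.9). Muscle had a peak of 724 bp at chr14:23069784-23070507 (AUC 801, summit −log10 p 6.22, percentile 63.4), and liver had a peak of 434 bp at chr14:23069811-23070244 (AUC 535, summit −log10 p 5.29, percentile 54.8). Summits were within 10 bp of each other in the 3 tissues. The AUC of the hypothalamus peak was 9.83 times that of the muscle peak, a ratio at percentile 89.7 of one-to-one pairs, whose median ratio was 4.01. Against the liver peak the AUC ratio was 14.7, at percentile 69.4 of pairs with a median of 10.8. The ratio of summit values was at percentile 83.9 against muscle and 39.5 against liver. For the strongest region of the window the AUC ratio of hypothalamus to muscle was 4.67, at percentile 59.9.

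The remaining region open in all tissues was short and had nearly the same edges in each. It spanned chr14:23028026-23028224 in hypothalamus (199 bp), chr14:23028026-23028209 in muscle (184 bp), and chr14:23028031-23028220 in liver (190 bp). Its hypothalamus AUC of 1262 over so few bases made 6.34 per bp, at percentile 98.1 of the list, while its length was at percentile 5.85. The summit reached a −log10 p of 10.1 for hypothalamus, 6.47 for muscle, and 5.50 for liver, at percentiles 77.7, 66.4, and 58.6. In length, the hypothalamus peak exceeded the muscle peak by a factor of 1.08, a ratio at percentile 18.9 of one-to-one pairs, and the liver peak by a factor of 1.05, at percentile 10.5.

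The order of the tissues in these 4 regions depended on the peaks they were ranked among. Among peaks on chromosomes 1 to 29 and X, the summit of the short region stood at percentile 77.1 in hypothalamus, 70.1 in muscle, and 73.3 in liver, and that of the region at the TMEM68 start stood at 90.6, 67.2, and 69.2. Liver was thus above muscle in both, and it stayed lowest in the other 2 regions. Among peaks overlapped in both other tissues alone, liver stood highest in the same 2 regions, at 67.1 against 18.1 in hypothalamus and 31.4 in muscle for the short one, and at 62.2 against 47.4 and 27.7 for the one at the TMEM68 start.

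A region of the same kind of length had no hypothalamus peak. It was open at chr14:23020536-23020738 in muscle (203 bp, AUC 362, summit −log10 p 4.75, percentile 38.0) and at chr14:23020556-23020744 in liver (189 bp, AUC 267, summit −log10 p 4.05, percentile 21.4). Both peaks stood low in their lists. Among peaks on chromosomes overlapped in 1 other tissue, their summits stood near the middle, at percentiles 55.5 (muscle) and 57.5 (liver). The authors' annotation places the liver peak in distal intergenic sequence with TMEM68 as the nearest gene.

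The other regions shared by a pair of tissues each included hypothalamus. At chr14:23882109-23884286, the last peak before the upper end of the window, hypothalamus had 2178 bp, an AUC of 10390, and a summit −log10 p of 16.1 (percentile 92.4). Muscle was open there over 1345 bp at chr14:23882249-23883593 with an AUC of 1194 and a summit −log10 p of 5.54 (percentile 53.2), and liver had no peak. The ratio of the summit values of hypothalamus and muscle, 2.91, was at percentile 94.3 of one-to-one pairs. At chr14:23135026-23136239 hypothalamus had an AUC of 3024 and a summit −log10 p of 7.58 (percentile 65.1), and liver had a wide and low peak at chr14:23135254-23136068 with an AUC of 365 and a summit −log10 p of 3.84 (percentile 14.5). The liver peak held 0.448 of AUC per bp, at percentile 2.51 of its list, and muscle had no peak there. Among liver peaks on chromosomes overlapped in 1 other tissue, the summit of this liver peak stood at percentile 43.2.

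**Figure D3:**
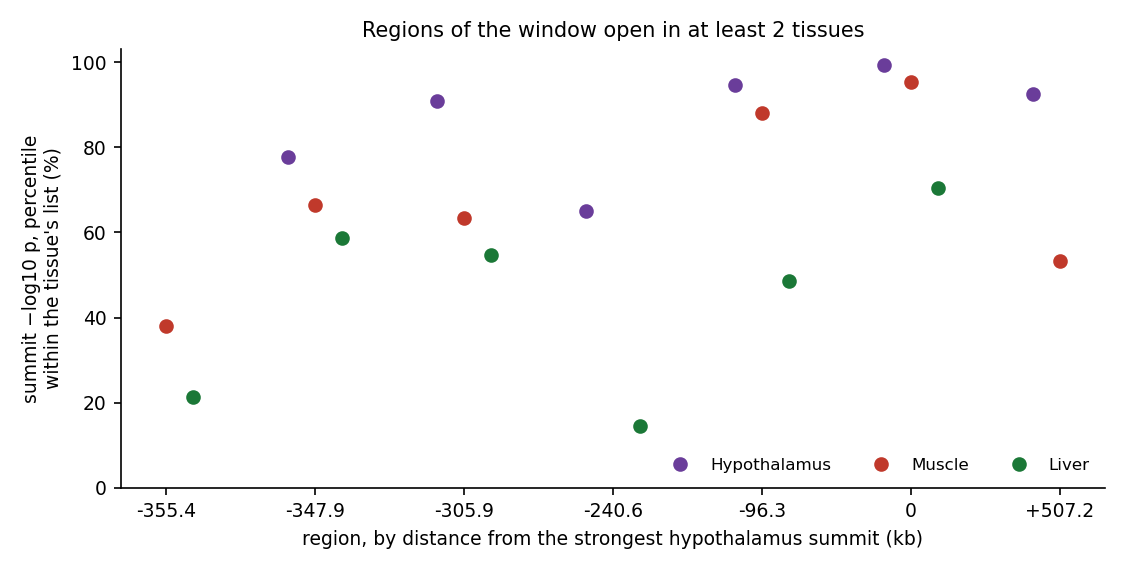
Percentile of the summit −log10 p within each tissue's list (vertical axis, %) for the 7 regions open in at least 2 tissues, ordered by distance from the strongest hypothalamus summit (horizontal axis, kb, not to scale). On these whole-list percentiles the 4 regions open in all tissues stood highest in hypothalamus and lowest in liver, with 99.3, 95.2, and 70.5 at the strongest, but the order of muscle and liver turned in 2 of the 4 among peaks on chromosomes 1 to 29 and X.

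Muscle had 2 peaks that no other tissue shared. One, at chr14:23348426-23348755, had 330 bp, an AUC of 675, and a summit −log10 p of 5.55 (percentile 53.4, or 74.4 among the 10976 muscle peaks without overlap on chromosomes). The other, at chr14:23074446-23074656, was among the weakest of the list, with an AUC of 210 (percentile 2.40) and a summit −log10 p of 3.81 (percentile 12.3, or 20.1 among those without overlap).

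Between 23402048 and 23882109, which is much of the upper part of the window, open chromatin was called in hypothalamus alone. A group of 6 hypothalamus peaks lay there within 56.4 kb, from 23547857 to 23604252, and covered 5555 bp. No muscle or liver peak overlapped any of them. Such a lack of overlap was usual for this tissue, with 74.8% of hypothalamus peaks on chromosomes and 76.9% of those in the window. The 6 peaks of the group carried 24.1% of the AUC of all hypothalamus peaks in the window. They were 6 of 26 peaks and 5555 of 21099 bp covered, so this was near their share of peaks and of length. Free stretches of 146 kb and 278 kb bordered the group, and the latter was the longest gap between hypothalamus peaks in the window. Of the 2038 gaps between hypothalamus peaks on chromosome 14, 52 were longer than it, and the median of the 25 gaps inside the window was 22.4 kb. In muscle, whose list is shorter, the stretch without a peak was longer, 506 kb from 23376396 to 23882249. Of the 759 gaps between muscle peaks on chromosome 14, 42 were longer than that.

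Within this group 3 peaks had a summit −log10 p above 10. The first, at chr14:23547857-23548932, had 1076 bp, an AUC of 5519, and a summit of 15.0. At chr14:23561707-23563243 lay a peak of 1537 bp with an AUC of 5853 and a summit of 14.99. The third, at chr14:23570655-23571632, had 978 bp, an AUC of 3243, and a summit of 12.6. Their summits stood at percentiles 90.3, 90.2, and 84.9 of the whole list. Set against the 53103 hypothalamus peaks on chromosomes that no other tissue overlaps, they stood at percentiles 97.3, 97.3, and 94.6. These 3 were picked by that same summit value, and the other 3 of the group stood at 22.7, 29.9, and 83.4. The peak at chr14:23561707-23563243 had weaker peaks on both sides, 164 bp away at chr14:23561183-23561542 (AUC 358, summit −log10 p 4.21) and 128 bp away at chr14:23563372-23564406 (AUC 870, summit −log10 p 4.45). The last of the group, at chr14:23603684-23604252, had an AUC of 1558 and a summit −log10 p of 8.60.

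Of the other 14 hypothalamus peaks without overlap, 13 lay below the strongest region and 1 lay above it. Their summit −log10 p ran from 3.53 to 7.20. The weakest, at chr14:23373614-23374140, ended 590 bp before the strongest peak of the window and had an AUC of 247. The highest was at chr14:23141258-23141739, with an AUC of 1242 and a summit at percentile 62.1. Closest to the strongest peak on its other side was chr14:23401475-23402048, with an AUC of 995 and a summit −log10 p of 6.29.

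Over all 26 hypothalamus peaks of the window the median summit −log10 p was 7.04 (lowest 3.53, highest 22.9), against 5.99 over the whole list. The median percentile was 60.9 for the summit, 56.4 for AUC, and 46.6 for length, so the typical peak was near the middle of the list. In muscle the median summit was 5.89 (3.81 to 11.4) against 5.35 over the list, and the median percentiles were 58.4, 52.8, and 42.7 in the same order. In liver the median summit was 5.15 (3.84 to 6.29) against 5.07 over the list, and the median percentiles were 51.6, 44.5, and 45.4. Among peaks on chromosomes 1 to 29 and X the median summit percentiles were 60.7 for hypothalamus, 62.2 for muscle, and 65.8 for liver, the opposite order. Above percentile 90 of the summit stood 6 hypothalamus peaks, 1 muscle peak, and no liver peak.

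Within the window much of the hypothalamus AUC was held by few peaks, and this share was not computed for other windows. The strongest by AUC carried 21.99% of the AUC of the window and the first 5 carried 64.9%, over 46.6% of the covered length. The 6 hypothalamus peaks that another tissue overlapped had a median summit −log10 p of 15.7 and a median length of 1657 bp, against 5.90 and 468 bp for the 20 that none overlapped. Over all chromosomes the medians were 15.6 for the 9166 peaks overlapped in both other tissues, 8.14 for the 8759 overlapped in 1, and 5.35 for the 53103 overlapped in none, so the window followed the order of the list. The 4 peaks of the window overlapped in both others had a median of 16.4.

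**Figure D4:**
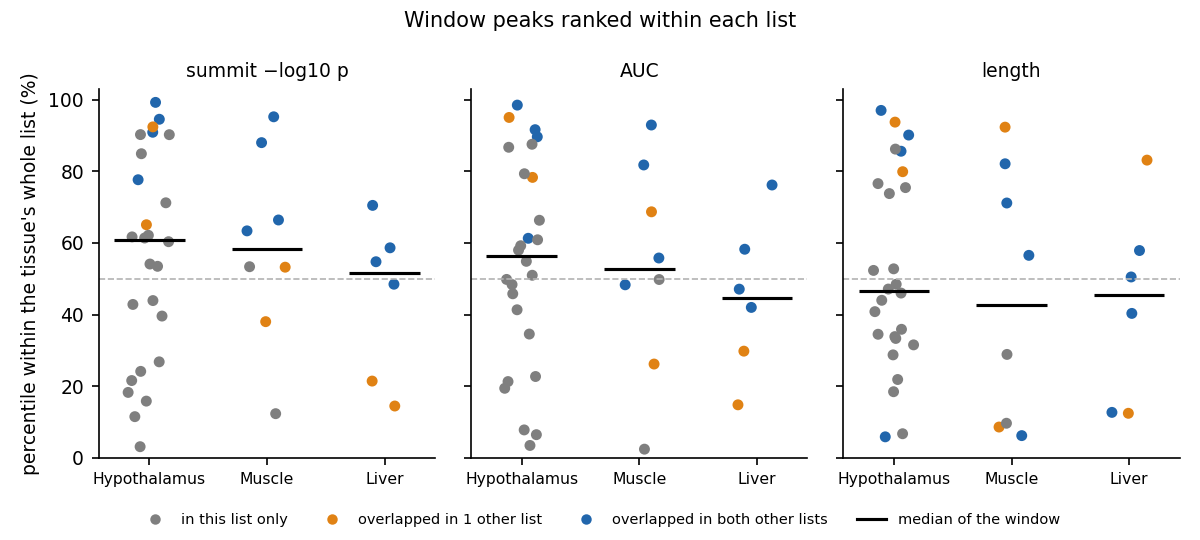
Percentile of each window peak within the whole list of its tissue (vertical axis, %) for the summit −log10 p, AUC, and length, with a point per peak colored by sharing and a bar at the median. The medians of the summit were 60.9 in hypothalamus, 58.4 in muscle, and 51.6 in liver, and no liver point stood above 70.5 for the summit.

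Start sites of marker genes could be looked up for few genes. Starts were located only for genes nearest to a called peak of these data, so the outcome cannot check the tissue labels. Of 10 muscle markers, the starts of DES and MYOG were located, and muscle had a peak over both, with a summit −log10 p of 7.60 for DES and 4.29 for MYOG. Hypothalamus had a peak over DES alone (3.71), and liver over neither. Of 10 liver markers, those of TF and AHSG were located, and liver had a peak over neither, whereas hypothalamus had one over TF (19.8) and one over AHSG (9.23). None of the 13 hypothalamus markers was located. The part of these markers in the results was not tested.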

How the data were processed

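Peaks were taken from the 3 deposited consensus lists. The authors used HISAT2 against ARS-UCD1.2, keeping multiple alignments, and called peaks with Genrich 0.6.1, removing duplicates, excluding the mitochondrial chromosome, and combining the 3 heifers per tissue by Fisher's method. Signal (AUC), the −log10 p at the summit, and the score, which is 1000 times AUC per bp capped at 1000, are the deposited values. A read placed at several sites counts as a fraction at each, which can affect peaks in repeated sequence. Starts, deposited from 0, are printed from 1. Peak ends and summit offsets, deposited as other numbers, were used as given.

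Overlap was at least 1 bp, checked against bedtools 2.31.1, and the code recovered 13 of 13 known answers. Percentiles were taken within lists, shares were given Wilson 95% intervals, and windows of 1 Mb had their starts in step with that of the window. The versions were pandas 2.3.3, scipy 1.17.1, numpy 2.4.6, matplotlib 3.10.9, and python 3.11.15. Named are all muscle and liver peaks, the 10 hypothalamus peaks with the highest summit, the 5 with the largest AUC, and peaks over an annotated start; the other hypothalamus peaks with values, and the group of 6, were chosen after their values were seen. Members and gene lists were chosen with earlier results of these data known. Start sites came from the part of the authors' annotation read here, which lists a gene only where it is nearest to a peak. Starts of 1 of 4 opioid receptor genes and 2 of 9 growth genes were located, and none of the PLAG family or opioid precursors. Sequences were not used here.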

Additional observations from a re-analysis of the deposited data

How the results depend on the processing

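Of 87 values recomputed for 22 results, 76 stayed within 1.5 times a count or within the 95% interval of a share or median. For medians in muscle and liver that interval was the full range of the 8 or 6 peaks, so staying within it says little. For the summit percentile it ran from 12.3 to 95.2 in muscle and from 14.5 to 70.5 in liver. The order of muscle and liver turned under some alternatives. With the 12063 strongest peaks kept per tissue, the window held 7 hypothalamus, 4 muscle, and 6 liver peaks, so muscle had fewer than liver. Of these, 42.9%, 100%, and 66.7% were overlapped in the same order, so liver-only peaks appeared. The overlap share over all kept peaks was not computed. The rank of the window by peak count moved to percentiles 79.6 and 66.1 of windows, from 59.1 and 57.1, in hypothalamus and muscle. The cause was not tested. Windows at whole multiples of 1 Mb cut the locus at 23 Mb. The upper one, with most of the locus, stood at percentiles 66.4 (hypothalamus), 56.9 (muscle), and 79.2 (liver), against 59.1, 57.1, and 80.3 for the main window. The lower one, from 22 Mb, stood at 36.6, 41.8, and 53.0 in the same order. It meets the locus only from 22900000 on and holds only its peak at chr14:22950721-22951122. Its percentiles therefore describe mostly neighbouring sequence. Among chromosome 14 peaks alone, the median summit percentile of liver was 70.6 instead of 51.6, above the 64.0 of muscle, and it was also above muscle among peaks on chromosomes (65.8 against 62.2). The limit on AUC per bp was chosen after seeing the data. The planned narrower window around the PLAG1 start was not run, since that start was not located. No paired analysis was possible because the lists combine the 3 heifers, and for the same reason no heifer could be left out. The depth of the libraries was not analysed here, and a region without a peak is one not called at the authors' threshold.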

Other observations

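Starts were located for only 2 of 9 growth genes, 1 of 4 opioid receptor genes, and no opioid precursor, each because a called peak was nearest to it. Of these, LCORL, a gene at another locus associated with stature in cattle, had a peak over its start in all 3 tissues. Its summit −log10 p was 19.3 in hypothalamus (percentile 96.9), 7.74 in muscle (percentile 79.2), and 6.57 in liver (percentile 73.8). The start of GH1, the growth hormone gene, had no peak in any of the tissues. The start of OPRD1, the delta opioid receptor gene, had none either, with 2 hypothalamus peaks and 1 muscle peak in its gene body.

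The windows of 1 Mb next to the PLAG1, CHCHD7, and PENK window held 24 hypothalamus, 6 muscle, and 4 liver peaks below it and 27, 9, and 2 above it.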
